A study of Homo sapiens with 9 samples.

Results

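The p53 target genes are described here in HL-60 cells, a human line from an acute myeloid leukaemia of promyelocytic type, and in its drug-resistant derivatives. The set holds 31 genes that textbooks give as induced by p53, taken by symbol and chosen with earlier results of these data known. Of these, 30 have a row in the table of 20637 genes, and PHLDA3 was not analysed here. A gene was tested when its normalized read count (reads scaled by each library's size factor) was at least 10 in at least 3 of the 9 libraries, which 26 of the 31 reached. Of the 26, 25 reached it in all 9 libraries, and CDKN1A did so in 1 of 3 parental, 3 HRA and 3 HRD libraries. The other members in the table, PERP, TP53INP1, SPATA18 and GDF15, had 4, 2, 2 and 2 reads over all 9 libraries.

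Polyadenylated RNA was measured in 3 groups of 3 biological replicates. Parental HL-60 cells had no drug named for their medium. HRA cells, resistant to cytarabine (Ara-C, a nucleoside analogue that stalls DNA synthesis), grew in 100 nM Ara-C, and HRD cells, resistant to the anthracycline daunorubicin (DNR, a topoisomerase II poison), grew in 30 nM DNR. The labels name a single resistant line per drug, both derived from the same HL-60 background, so resistance, the drug itself and the history of 1 line cannot be told apart. They do not say that replicates came from separately derived lines, so p-values measure the spread between these libraries. Fewer cells of a kind and less RNA per cell cannot be told apart in such bulk samples either.

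The protein p53 is a transcription factor that is stabilised after DNA damage and binds a response element made of a pair of short repeats near its target genes. Its targets halt the cell cycle (CDKN1A, BTG2), trigger death (FAS, TNFRSF10B), repair DNA (DDB2, XPC) and adjust metabolism (TIGAR, SESN2), while MDM2 and PPM1D switch p53 off again. HL-60 is known as a line without functional p53, and many of these genes also answer to other factors, such as ATF4, p63 and immediate-early signalling.

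Whether p53 protein is present was not measured, and the genes are therefore called p53 targets by their list and not by any p53 activity in these cells.

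The p53 response element is the sequence feature the members are known for, so it was searched in the RefSeq promoter windows (GRCh38.p14, 250 bases before to 50 after a start). The element was the published p53 consensus, 2 copies of a palindrome with 0 or 1 base between them, at most 2 mismatches and the core C and G of each copy kept, so that it reads alike on both strands. Windows were found for 27 of 31 members, and 4 of these genes (14.8%) held a match, against 0.674% of 27305 genes with a window. For MDM2 it lay in 2 of 4 windows, each at an alternative start, and for FAS in 1 of 3. The matches are shown 5′ to 3′ on the plus strand with the matched element in capitals, because they let a reader see which members carry the element close to a start.
MDM2: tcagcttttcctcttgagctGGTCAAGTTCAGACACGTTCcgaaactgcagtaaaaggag
FAS: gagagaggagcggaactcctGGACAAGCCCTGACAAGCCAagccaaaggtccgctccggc
AEN: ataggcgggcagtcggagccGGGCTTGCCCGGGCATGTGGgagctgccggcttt
DDB2: gtttGAACAAGCCCTGGGCATGTTTggcg
The MDM2 stretch is chr12:68808903-68808962, with the element at bases −94 to −75 from the start. The FAS stretch is chr10:88991289-88991348, with the element at −122 to −103. For AEN it is chr15:88621286-88621339 with the element at −34 to −15, and for DDB2 it is chr11:47214975-47215003 with the element at bases 6 to 26 after the start. The DDB2 element had 0 mismatches and the others had 2. These 4 genes did not move together: FAS and DDB2 were higher in HRA than in parental cells, MDM2 was lower in HRD, and AEN passed in no comparison. A match is a description of letters and shows no binding, and elements outside these windows were not searched.

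The libraries held 20822709 to 66563328 reads, and 3 reads correspond to 1.49 to 4.52 normalized reads. HL-60 marker genes summed to 301339 to 344229 in parental, 274576 to 304842 in HRA and 223494 to 279006 in HRD libraries, most of it from MPO, while ELANE stood at no more than 4.06. The granule proteases CTSG and PRTN3 were lower in HRA (log2 fold change −1.39 ± 0.09 SE, adjusted p = 2.31e-05, and −1.64 ± 0.36, 0.0129), and CTSG was lower in HRD (−0.69 ± 0.09, 4.09e-04). CD33, a surface marker of myeloid cells, was higher in HRA (0.30 ± 0.08, 0.0267), and MYB, a factor of immature blood cells, did not pass there (0.24 ± 0.10, 0.113). Between the resistant lines, CTSG (0.71 ± 0.09, 2.90e-04) and PRTN3 (1.26 ± 0.36, 0.0239) were higher in HRD, and MYB (−0.36 ± 0.10, 0.0166) and CD33 (−0.27 ± 0.08, 0.0236) lower. PRTN3 in HRA missed the threshold after omitting replicate HRA 2 (0.0556), over a span of adjusted p from 0.00325 to 0.0556. PRTN3 between the resistant lines missed the threshold after omitting any 1 of replicates HRA 2 (0.0850) or HRD 3 (0.0827), over a span of adjusted p from 0.00621 to 0.0872. CD33 in HRA missed the threshold after omitting any 1 of replicates parental 1 (0.0527), parental 3 (0.0770), HRA 1 (0.0787), HRA 2 (0.0818) or HRA 3 (0.0896), over a span of adjusted p from 0.00831 to 0.135. CD33 between the resistant lines missed the threshold after omitting any 1 of replicates HRA 1 (0.0622), HRA 2 (0.0623), HRA 3 (0.0845), HRD 2 (0.0668) or HRD 3 (0.0734), over a span of adjusted p from 0.0103 to 0.162. MYB missed the threshold after omitting any 1 of replicates HRA 1 (0.0796), HRA 2 (0.0545) or HRD 2 (0.0621), over a span of adjusted p from 0.00386 to 0.186. Of 18 markers of fibroblasts, epithelium, T, B and erythroid cells, 12 had a row, and their sum ran from 122 to 139 in parental, 134 to 244 in HRA and 301 to 419 in HRD, most of it from KRT8. KRT8, a keratin of epithelia, rose in HRD (2.09 ± 0.23, adjusted p = 1.09e-04 in limma, and 1.56 ± 0.23 above HRA, 6.67e-04), while the epithelial marker CDH1 stood at no more than 1.51 and the fibroblast marker COL1A1 at no more than 0.698. The reads of its partner KRT18 were 7, 0 and 27 over the parental, the HRA and the HRD libraries. Of lymphocyte markers, the B cell marker CD79A fell in HRD (−1.60 ± 0.47, 0.0304, and −2.71 ± 0.47 against HRA, 0.00165), and the T cell markers CD3D and CD2, too low to test, had, in the same order, 25, 30 and 4 and 31, 30 and 5 reads. CD79A in HRD missed the threshold after omitting any 1 of replicates parental 1 (0.107), parental 2 (0.0614), HRD 2 (0.102) or HRD 3 (0.0532), with no filter on low values (0.0592) and with only the 6 libraries compared (0.0685), over a span of adjusted p from 0.0192 to 0.163. The part of these markers in the members' values was not tested.

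The question of the first 2 comparisons was which p53 target transcripts differ between cells resistant to either drug and parental cells. In HRA, 5 of 26 tested members were higher (FAS, TNFRSF10B, TRAF4, DDB2 and STEAP3) and 1 was lower (ZMAT3). That is 23.1% of the tested members, where 15.2% of all 12569 tested genes passed, 9.13% higher and 6.1% lower. In HRD, 3 were higher (BTG2, PLK3 and STEAP3) and 5 lower (MDM2, PPM1D, TRIAP1, TIGAR and FDXR), or 30.8% beside 22.8% of all tested genes, 10.7% higher and 12.0% lower. Only STEAP3 passed in both comparisons, which share their parental libraries. A gene passed where its p from 1 limma model of all 9 libraries, adjusted by Benjamini and Hochberg's method across the 12569 genes, was below 0.05, on log2(value + 1), a scale that understates the change of low genes. With the replicate number as a block in that model, 6 members were higher and 1 lower in HRA, with CDKN1A added, and 2774 genes passed in all. The members' shares in the main fit lie near those of all tested genes, so these counts say nothing particular about the members. The members' median log2 fold change was −0.10 in HRA and 0.02 in HRD, where that of all tested genes was −0.01 and 0.01. Groups did not overlap for 8 of 26 members in HRA, a smaller share than the 38.0% of all tested genes. In HRD they did not overlap for 14 of 26, a larger share than the 35.3% of all tested genes, and this difference was not tested.

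**Figure D1:**
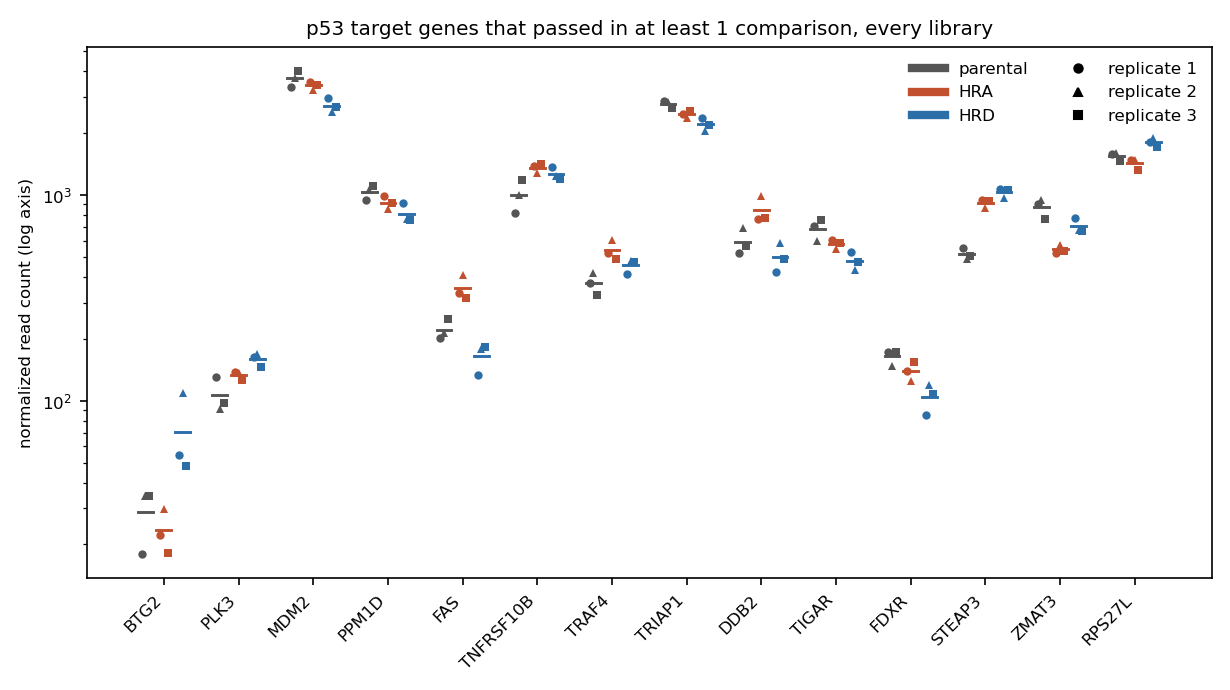
Normalized read counts (log axis) of the 14 p53 target genes that passed in at least 1 of 3 comparisons, 1 point per library, with replicates as symbols and the mean of each group as a line. STEAP3 sits higher in both resistant lines than in parental cells, FAS and DDB2 sit highest in HRA, and MDM2, PPM1D, TRIAP1, TIGAR and FDXR sit lowest in HRD.

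MDM2 and PPM1D, the members that switch p53 off, were lower in HRD. MDM2, the ubiquitin ligase that marks p53 for degradation, stood at 3357, 3714 and 4002 in parental, 3563, 3233 and 3442 in HRA and 2949, 2526 and 2675 in HRD libraries, in normalized read counts of replicates 1, 2 and 3, the order used for every gene here. Every HRD library lay below every parental and every HRA library. The log2 fold change was −0.44 ± 0.09 (SE) in HRD (adjusted p = 0.00503) and −0.11 ± 0.09 in HRA (0.427). PPM1D, the phosphatase WIP1 that dephosphorylates p53 and its activating kinases, stood at 947, 1058 and 1102 in parental, 986, 852 and 911 in HRA and 914, 767 and 759 in HRD libraries. HRD libraries were below all parental ones, with a log2 fold change of −0.35 ± 0.11 (adjusted p = 0.0352), and in HRA it was −0.18 ± 0.11 (0.289). PPM1D missed the threshold after omitting any 1 of replicates parental 2 (0.0933), parental 3 (0.106), HRD 2 (0.111) or HRD 3 (0.105) and with only the 6 libraries compared (0.0742), over a span of adjusted p from 0.0136 to 0.237.

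Among the genes of cell cycle arrest, BTG2 and PLK3 rose in HRD. BTG2, an antiproliferative factor that recruits mRNA deadenylases, stood at 18.0, 34.4 and 34.5 in parental, 22.3, 29.8 and 18.3 in HRA and 54.6, 108 and 48.1 in HRD libraries. All HRD libraries were above all others, with replicate 2 the highest, and the rise was 2.32-fold (log2 1.22 ± 0.37, adjusted p = 0.0348). BTG2 missed the threshold after omitting any 1 of replicates parental 1 (0.117) or HRD 2 (0.137), with no filter on low values (0.0664) and with only the 6 libraries compared (0.0572), over a span of adjusted p from 0.0119 to 0.137. In HRA the BTG2 value was −0.26 ± 0.37 (0.670). PLK3, a stress-activated kinase, stood at 130.2, 90.8 and 97.4 in parental, 138, 137 and 127 in HRA and 163, 169 and 146 in HRD libraries. HRD was above all parental libraries, by 0.60 ± 0.17 (adjusted p = 0.0284), and HRA overlapped with parental cells (0.35 ± 0.17, 0.196). PLK3 missed the threshold after omitting any 1 of replicates parental 2 (0.0976), parental 3 (0.0780), HRD 1 (0.0600) or HRD 2 (0.0878), with no filter on low values (0.0512) and with only the 6 libraries compared (0.0698), over a span of adjusted p from 0.0131 to 0.244.

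CDKN1A encodes p21, the inhibitor of cyclin-dependent kinases through which p53 stops the cell cycle. It stood at 2.81, 54.0 and 3.00 in parental, 17.5, 70.3 and 15.8 in HRA and 26.3, 122 and 21.4 in HRD libraries, from 51, 90 and 154 reads in parental, HRA and HRD libraries together. Replicate 2 was the highest of each group, so the groups overlapped. Within each replicate number CDKN1A was lowest in parental and highest in HRD libraries. The log2 fold change was 1.58 ± 1.0 in HRA (adjusted p = 0.313) and 2.16 ± 1.0 in HRD (0.149). Parental and HRA libraries of 1 number moved alike over all genes, though only weakly for replicate 3. CDKN1A reached the filter only with its resistant libraries, so its adjusted p is not read as a test. Over the alternatives it ran up to 0.731 in HRA and 0.441 in HRD. With the replicate number as blocking term in limma it was below 0.05 in both lines, though HRD replicate 1 did not move with parental replicate 1. It was also below 0.05 without parental replicate 2, where the log2 fold changes were 2.85 in HRA and 3.44 in HRD. That omission kept replicate 2, the highest library, in the resistant groups. With replicate 2 left out of every group the values were 2.18 in HRA and 2.66 in HRD.

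The remaining genes of arrest did not pass. CCNG1, a cyclin that acts with the phosphatase PP2A, had log2 fold changes of 0.16 ± 0.12 in HRA and 0.27 ± 0.12 in HRD (adjusted p = 0.396 and 0.132). GADD45A, a stress sensor that acts on cyclin B1-CDK1 and on MAP kinases, stood at 122, 136 and 117 in parental, 118, 131 and 74.3 in HRA and 71.9, 113 and 57.7 in HRD libraries. Its HRD libraries lay below all parental ones, at −0.68 ± 0.27 (adjusted p = 0.100), and the value was −0.94 without HRD replicate 2 (adjusted p = 0.0309, range 0.0247 to 0.282). That omission kept parental replicate 2, the highest of its group. With replicate 2 left out of every group GADD45A did not pass. PLK2, a kinase of centriole duplication, ranged from 39.8 to 87.4 over all 9 libraries, with overlap between all groups.

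**Figure D2:**
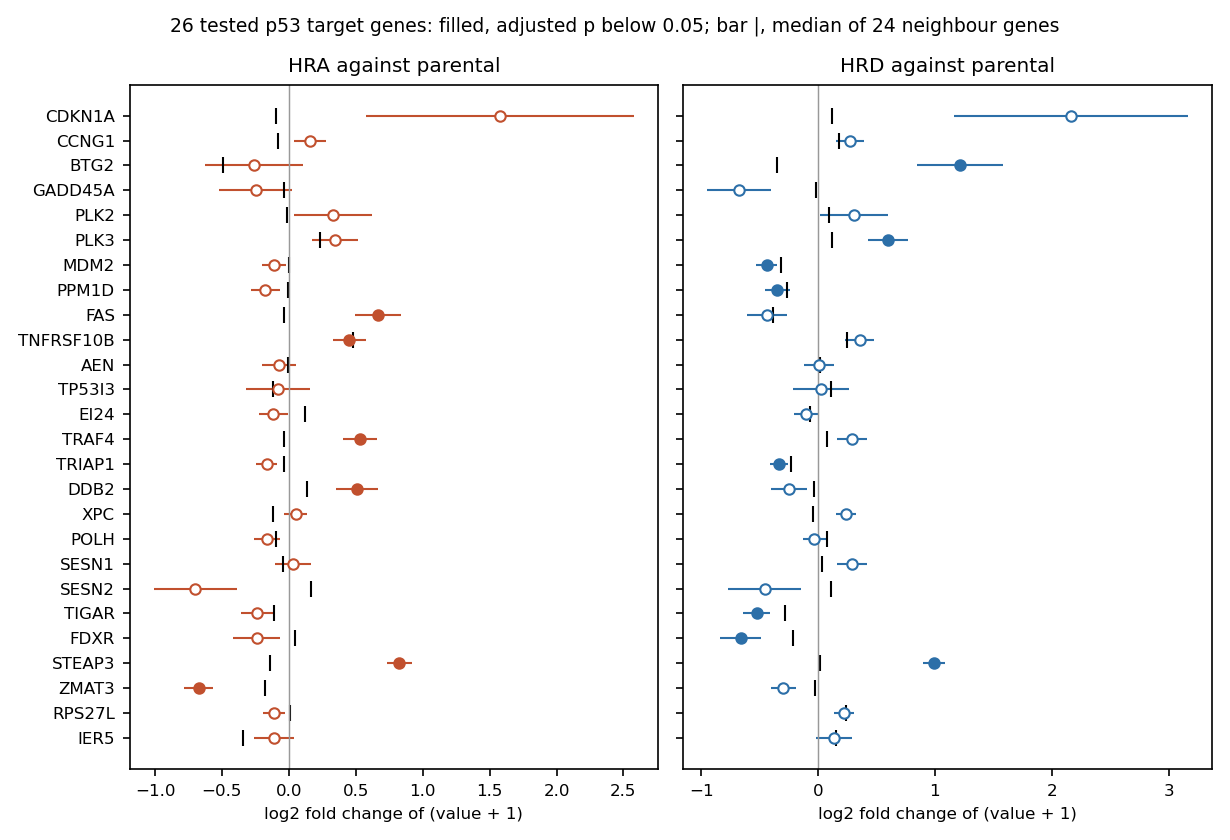
Log2 fold changes (value + 1) of the 26 tested p53 target genes with their SE, filled where the adjusted p was below 0.05, and the median of the 24 tested protein-coding genes nearest to each as a black bar. TNFRSF10B lies on the bar of its neighbours in HRA (0.45 beside 0.48), while STEAP3 lies far from its bar in both resistant lines.

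Of the 7 tested genes of the death pathways, FAS, TNFRSF10B and TRAF4 rose in HRA. FAS, the receptor of the death ligand FASLG, stood at 201, 213 and 250.3 in parental, 334, 409.9 and 314 in HRA and 133, 178 and 183 in HRD libraries. The 3 HRA libraries were above all others, by 1.59-fold over parental cells (0.67 ± 0.17, adjusted p = 0.0227). FAS missed the threshold after omitting any 1 of replicates parental 1 (0.0662), parental 2 (0.0640), HRA 1 (0.0677) or HRA 2 (0.0995), over a span of adjusted p from 0.00287 to 0.195. All HRD libraries lay below all parental ones, at −0.44 ± 0.17, which did not pass (0.0881). ACTA2 overlaps FAS in the RefSeq annotation and stood at 6.13 to 86.5 over the libraries. TNFRSF10B, the TRAIL receptor DR5, stood at 814, 999.9 and 1187 in parental, 1378, 1273 and 1413 in HRA and 1364, 1238 and 1198 in HRD libraries. HRA libraries were above all parental ones (0.45 ± 0.13, adjusted p = 0.0328), and so were those of HRD (0.35 ± 0.13, 0.0636). TNFRSF10B missed the threshold after omitting any 1 of replicates parental 1 (0.0845), parental 2 (0.0721), HRA 1 (0.108), HRA 2 (0.0656) or HRA 3 (0.0963), over a span of adjusted p from 0.0106 to 0.123. The HRD value was 0.49 without parental replicate 3 (adjusted p = 0.0150) and passed in DESeq2 (0.0493, range 0.0150 to 0.195). TRAF4, a signalling adaptor of the TRAF family, stood at 372, 418 and 328 in parental, 524, 602 and 489 in HRA and 415, 476 and 472 in HRD libraries. All HRA libraries were above all parental ones (0.53 ± 0.13, adjusted p = 0.0186), and HRD overlapped with parental cells (0.29 ± 0.13, 0.133). TRAF4 missed the threshold after omitting any 1 of replicates parental 3 (0.0603), HRA 1 (0.0636) or HRA 2 (0.0854), over a span of adjusted p from 0.00257 to 0.0854.

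TRIAP1, a mitochondrial lipid-transfer factor that restrains apoptosis, was the death-pathway gene that fell in HRD. It stood at 2864, 2819 and 2644 in parental, 2477, 2367 and 2573 in HRA and 2381, 2053 and 2182 in HRD libraries. HRD libraries were below all parental ones (−0.33 ± 0.08, adjusted p = 0.0119), and the HRA value was −0.17 ± 0.08 (0.180). TRIAP1 missed the threshold after omitting replicate HRD 2 (0.0510), over a span of adjusted p from 0.00242 to 0.160. AEN, an exonuclease that acts in apoptosis, TP53I3, a quinone oxidoreductase, and EI24, an endoplasmic reticulum protein of autophagy, passed in no comparison, with log2 fold changes between −0.12 and 0.11. AEN ranged from 1189 to 1751, TP53I3 from 55.1 to 96.2 and EI24 from 2854 to 3652. PERP, a desmosome protein of epithelia, had its 4 reads in parental libraries. TP53INP1, an activator of p53 and autophagy, SPATA18, a factor of mitochondrial quality control, and the stress cytokine GDF15 had no more than 1 read in any library, so none could be tested.

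DDB2 was the DNA repair gene that rose in HRA. It encodes the sensor of ultraviolet lesions in nucleotide excision repair and stood at 522, 693 and 567 in parental, 766, 990.2 and 777 in HRA and 422, 586 and 491 in HRD libraries. HRA libraries were above all others (0.51 ± 0.15, adjusted p = 0.0479, 0.00372 with the replicate block), and HRD overlapped with parental cells (−0.25 ± 0.15, 0.278). DDB2 missed the threshold after omitting any 1 of replicates parental 1 (0.132), parental 3 (0.118), HRA 1 (0.0852), HRA 2 (0.186) or HRA 3 (0.0747) and with no filter on low values (0.0632), over a span of adjusted p from 0.00372 to 0.186. XPC, which recognises distorted DNA in the same pathway, stood at 732, 768 and 721 in parental, 762, 791 and 749 in HRA and 883, 922 and 824 in HRD libraries. Its HRD libraries were above all others, at 0.24 ± 0.09, which did not pass (adjusted p = 0.0676). POLH, the polymerase eta that copies past lesions, had log2 fold changes of −0.17 ± 0.10 in HRA and −0.03 ± 0.10 in HRD (adjusted p = 0.276 and 0.849).

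Of the metabolic members, STEAP3 rose in both resistant lines, and TIGAR and FDXR fell in HRD. STEAP3, an endosomal ferrireductase of iron uptake, stood at 554, 491 and 507 in parental, 946, 866 and 937 in HRA and 1065, 967 and 1060.1 in HRD libraries. Every resistant library was above every parental one, by 1.77-fold in HRA (0.82 ± 0.09, adjusted p = 3.27e-04) and 1.99-fold in HRD (0.99 ± 0.09, 3.01e-05), and both passed under every alternative run (ranges of adjusted p 2.63e-12 to 0.00552 and 1.32e-18 to 8.37e-04). TIGAR, a phosphatase that lowers glycolytic flux, stood at 708, 599 and 755 in parental, 607, 544 and 587 in HRA and 526, 432 and 470.2 in HRD libraries. HRD libraries were below all parental and HRA ones (−0.53 ± 0.12, adjusted p = 0.00876), and the HRA value was −0.24 ± 0.12 (0.193). FDXR, the ferredoxin reductase of mitochondria, stood at 173, 147 and 172 in parental, 139, 124 and 154 in HRA and 85.3, 119 and 108 in HRD libraries. HRD libraries were below all others (−0.66 ± 0.17, adjusted p = 0.0190), while HRA overlapped with parental cells (−0.24 ± 0.17, 0.380). FDXR missed the threshold after omitting any 1 of replicates parental 1 (0.0583), parental 3 (0.0554) or HRD 1 (0.0524), over a span of adjusted p from 0.00518 to 0.0583.

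The sestrins, which restrain the kinase complex mTORC1, did not pass. SESN1 had log2 fold changes of 0.03 ± 0.13 in HRA and 0.29 ± 0.13 in HRD (adjusted p = 0.899 and 0.141). SESN2 stood at 561, 698 and 1599 in parental, 539, 482 and 564 in HRA and 481, 785 and 643 in HRD libraries. Parental replicate 3 was above the other 8 libraries, and the log2 fold changes were −0.70 ± 0.31 and −0.46 ± 0.31 (0.153 and 0.334). The ATF4 target CHAC1 was likewise highest in that library, at 529 beside 92.0 and 109 in the other parental libraries, and so was SLC7A11, at 2326 beside 888 and 983. The part of that library in the SESN2 value is given by leaving it out: the log2 fold changes were then −0.25 in HRA and −0.0044 in HRD.

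ZMAT3, an RNA-binding protein that regulates splicing, was the member that fell in HRA. It stood at 904, 945 and 764 in parental, 522, 572 and 537 in HRA and 772, 678 and 671 in HRD libraries. The HRA libraries were below all others (−0.67 ± 0.11, adjusted p = 0.00246), a 1.60-fold difference that passed under every alternative run (range of adjusted p 1.14e-06 to 0.0308). HRD overlapped with parental cells at −0.30 ± 0.11 (0.0721). RPS27L, a close paralogue of the ribosomal protein RPS27 whose shared reads are uncertain, stood at 1581, 1604 and 1457 in parental, 1488, 1477 and 1329 in HRA and 1806, 1892 and 1712 in HRD libraries. HRD was above all other libraries, and it had log2 fold changes of −0.11 ± 0.08 in HRA and 0.22 ± 0.08 in HRD (adjusted p = 0.387 and 0.0805). IER5, an immediate-early regulator of the heat-shock factor HSF1, ranged from 553 to 963 with overlap between all groups.

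The resistant lines were then compared with each other, a comparison of 2 lines with libraries as replicates. FAS and DDB2 were lower in HRD than in HRA and BTG2 was higher, each with no overlap between the groups. The log2 difference, HRD minus HRA, was −1.10 ± 0.17 for FAS (adjusted p = 7.90e-04, 2.15-fold), −0.76 ± 0.15 for DDB2 (0.00424) and 1.48 ± 0.37 for BTG2 (0.0120, 2.78-fold). MDM2 was lower in HRD (−0.33 ± 0.09, 0.0175), and ZMAT3 (0.38 ± 0.11, 0.0237) and RPS27L (0.33 ± 0.08, 0.0120) were higher. In total 3 of 26 members were higher and 3 lower, 23.1% beside 30.1% of all tested genes (13.9% higher, 16.2% lower), and 12 of 26 did not overlap, beside 47.0%. MDM2 missed the threshold after omitting any 1 of replicates HRA 1 (0.0758), HRA 3 (0.0561) or HRD 2 (0.0621), over a span of adjusted p from 0.00749 to 0.109. ZMAT3 missed the threshold after omitting any 1 of replicates HRA 1 (0.0890), HRA 3 (0.0685) or HRD 1 (0.0678), over a span of adjusted p from 0.00819 to 0.0890. RPS27L missed the threshold after omitting replicate HRA 3 (0.0580), over a span of adjusted p from 0.00251 to 0.102. STEAP3 did not pass between the resistant lines (0.17 ± 0.09, 0.190).

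Each member was also set beside its neighbours on the chromosome, the 12 tested protein-coding genes on either side in the RefSeq order. TNFRSF10B, on chromosome 8, had a log2 fold change of 0.45 in HRA, and its neighbours had a median of 0.48. The 5 members that fell in HRD lie on chromosomes 12 and 17, and the neighbours of each had a median below 0. For MDM2 the value was −0.44 beside −0.32, for PPM1D −0.35 beside −0.27 and for TRIAP1 −0.33 beside −0.24. TIGAR and FDXR stood further from theirs, at −0.53 beside −0.29 and −0.66 beside −0.22. The neighbours of the other members that rose had lower medians than the members. STEAP3, on chromosome 2, had neighbour medians of −0.14 in HRA and 0.01 in HRD, FAS on chromosome 10 had −0.03 in HRA, TRAF4 on chromosome 17 −0.04 and DDB2 on chromosome 11 0.13. BTG2 and PLK3, on chromosome 1, rose in HRD while their neighbours had medians of −0.35 and 0.12, and ZMAT3 on chromosome 3 fell by more in HRA than its neighbours' −0.18. The part of the neighbourhood in these values was not tested. Some members overlap another gene in RefSeq, and without a stated strand setting reads in the overlap cannot be told apart: CPM, which overlaps MDM2, ran from 21 to 60.7 over the libraries, and RHOBTB2, which overlaps TNFRSF10B, from 198 to 415.

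Some members followed the replicate number. CDKN1A, GADD45A, TRAF4, DDB2 and XPC were highest in replicate 2 of each group, 5 of 26 members beside 11.2% of all tested genes, and TIGAR and STEAP3 were lowest there, 2 of 26 beside 8.97%. The labels do not say what a replicate number shares. With replicate 2 of every group left out, a choice made after CDKN1A was seen, the adjusted p of some members crossed 0.05. In HRA those that no longer passed were FAS (0.195), TNFRSF10B (0.123), TRAF4 (0.0827) and DDB2 (0.0771), in HRD BTG2 (0.126), PLK3 (0.244), MDM2 (0.0735), PPM1D (0.237) and TRIAP1 (0.160), and between the resistant lines MDM2 (0.109), ZMAT3 (0.0716) and RPS27L (0.102). The adjusted p of CDKN1A fell below 0.05 in this setting, at 2.18 in HRA and 2.66 in HRD. It is not read as a test, because CDKN1A reached the filter only with its resistant libraries. Within each number CDKN1A, DDB2 and TRAF4 were higher in HRA than in parental cells, and GADD45A was lower. CDKN1A was higher still in HRD at every number.

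**Figure D3:**
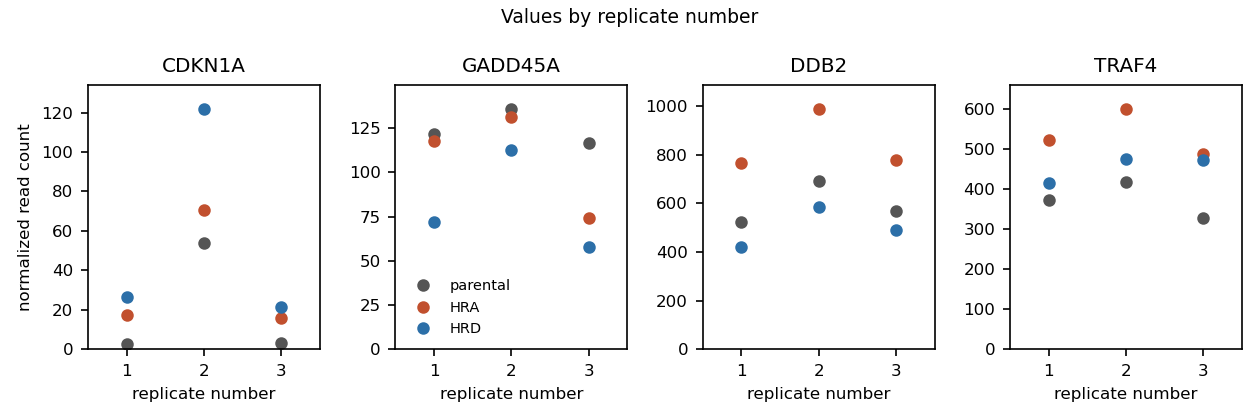
Normalized read counts of CDKN1A, GADD45A, DDB2 and TRAF4 by replicate number, 1 point per library and 1 colour per group. Replicate 2 is the highest of each group for all 4 genes. At every number HRA lies above parental cells for CDKN1A, DDB2 and TRAF4 and below them for GADD45A, and HRD lies above HRA for CDKN1A.

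The p53 family and its regulators were taken from a list of 21 genes, of which 20 were tested. In HRA, 3 were higher and 4 lower (4 and 7 with the replicate block), and in HRD 2 and 4, with medians of −0.09 and −0.01. These counts are 35% beside 15.2% of all tested genes in HRA and 30% beside 22.8% of all tested genes in HRD. Each includes a call of TP63, which only its resistant libraries brought past the filter, so both shares are raised by that gene. TP63, the family member of epithelial stem cells, was near 0 in parental cells and present at low level in both resistant lines. It stood at 0, 2.45 and 0 in parental, 38.4, 24.4 and 47.5 in HRA and 16.9, 12.1 and 22.4 in HRD libraries, from 2, 112 and 63 reads per group. The ratio to parental cells was 61.1 in HRA, with a 95% counting interval of 16.5 to 511, and 28.4 in HRD, with an interval of 7.55 to 240.0. These intervals cover counting error only, and TP63 reached the filter only through its resistant libraries, so no test of it is given. TP73 had 20 reads over all 9 libraries and could not be tested.

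MDM4, the partner of MDM2 that masks p53, was lower in both resistant lines. It stood at 1282, 1096 and 1584 in parental, 796, 708 and 825 in HRA and 834, 792 and 1026 in HRD libraries, with every resistant library below every parental one. The log2 fold change was −0.75 ± 0.14 in HRA (adjusted p = 0.00550, neighbours −0.47) and −0.57 ± 0.14 in HRD (0.0143, neighbours −0.27). MDM4 HRD missed the threshold after omitting any 1 of replicates parental 3 (0.0514) or HRD 2 (0.0542), over a span of adjusted p from 0.00148 to 0.0542. HIPK2, a kinase that activates p53, rose in HRA (0.73 ± 0.13, 0.00415, neighbours 0.33). The ubiquitin ligase COP1, listed under its older symbol RFWD2, fell there (−0.56 ± 0.09, 0.00213, neighbours −0.52). USP7, the deubiquitinase of MDM2 and p53, fell in HRD (−0.46 ± 0.08, 0.00278, neighbours −0.36), as did the acetyltransferase CREBBP (−0.33 ± 0.09, 0.0188, neighbours −0.39). CREBBP missed the threshold after omitting any 1 of replicates parental 2 (0.0503), parental 3 (0.0643) or HRD 2 (0.0748) and with only the 6 libraries compared (0.0569), over a span of adjusted p from 0.00763 to 0.187. Between the resistant lines, 3 regulators were higher and 3 lower in HRD, 30% beside 30.1% of all tested genes. HIPK2 (−0.74 ± 0.13) and PPP1R13L, the inhibitor iASPP (−0.81 ± 0.25, 0.0306), were lower, and COP1 (0.72 ± 0.09) and RCHY1, another p53 ubiquitin ligase (0.36 ± 0.08, 0.00560), were higher. PPP1R13L missed the threshold after omitting any 1 of replicates HRA 1 (0.0532), HRA 2 (0.115), HRA 3 (0.0614), HRD 1 (0.0911) or HRD 2 (0.0769) and with no filter on low values (0.0683), over a span of adjusted p from 0.0220 to 0.203.

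**Figure D4:**
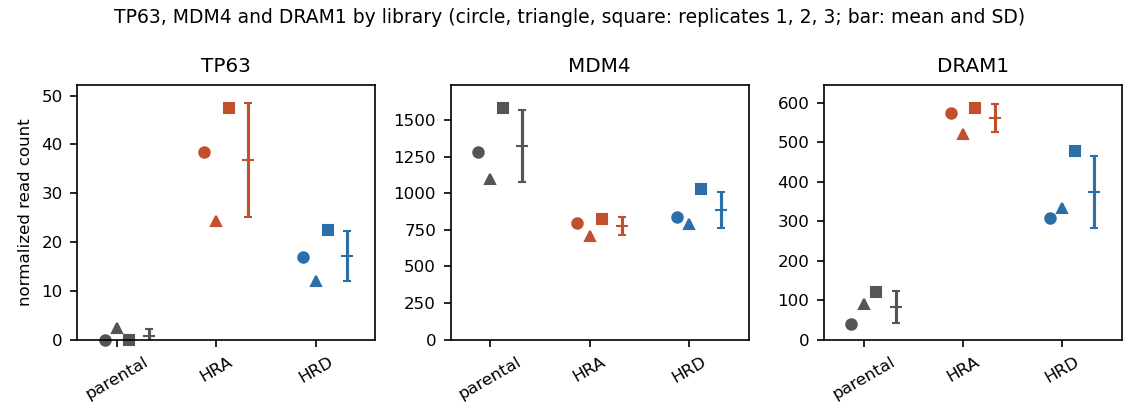
Normalized read counts of TP63, MDM4 and the p53-induced gene DRAM1, 1 point per library (circle, triangle and square for replicates 1, 2 and 3) with the mean and SD of 3 replicates. TP63 and DRAM1 are higher in all 6 resistant libraries than in the parental ones, and MDM4 is lower in all 6.

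A second list held 36 other genes that p53 induces, of which 30 were tested. In HRA 3 were higher (3 higher and 1 lower with the replicate block), with a median of 0.12, and in HRD 2 were higher and 3 lower, with a median of −0.03. The shares were 10.0% beside 15.2% of all tested genes in HRA and 16.7% beside 22.8% of all tested genes in HRD. DRAM1, a lysosomal protein of autophagy, had the largest change among those that passed against parental cells. It stood at 38.7, 90.8 and 119.9 in parental, 574, 521 and 587 in HRA and 308, 334 and 478 in HRD libraries, a rise of 2.88 ± 0.33 in HRA (adjusted p = 3.59e-04) and 2.27 ± 0.33 in HRD (6.76e-04), while its neighbours on chromosome 12 had medians of −0.10 and −0.29. Every resistant library was above every parental one. FUCA1, a lysosomal fucosidase, fell in HRD from 36.4 ± 5.16 to 10.4 ± 2.08 (SD, n = 3; −1.72 ± 0.30, adjusted p = 0.00196 in limma). RRM2B, the p53-induced subunit of ribonucleotide reductase, rose in both lines (0.42 ± 0.11, 0.0271, and 0.53 ± 0.11, 0.00589). It lies on chromosome 8, and its neighbours had medians of 0.55 and 0.16. RRM2B HRA missed the threshold after omitting any 1 of replicates parental 1 (0.0779), parental 3 (0.0611), HRA 1 (0.118) or HRA 2 (0.0773), over a span of adjusted p from 0.00683 to 0.118. TNFRSF10D, a TRAIL decoy receptor on the same chromosome, rose in HRA (0.73 ± 0.16, 0.0124, neighbours 0.44). TNFRSF10D missed the threshold after omitting replicate HRA 2 (0.0571), over a span of adjusted p from 5.51e-04 to 0.0571. E2F7, a repressor of the cell cycle, fell in HRD (−0.53 ± 0.12, 0.00982, neighbours −0.27). PRKAB1, a subunit of the energy sensor AMPK, had a value of −0.41 ± 0.10 there (0.0114).

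Between the resistant lines 2 of these 30 genes were higher in HRD and 6 lower, 26.7% beside 30.1% of all tested genes. The log2 difference was −1.85 ± 0.30 for FUCA1 (adjusted p = 0.00102) and −0.46 ± 0.10 for PRKAB1 (0.00571). TNFRSF10C, a decoy TRAIL receptor of low count, is among those counted higher. It stood at 6.73, 8.59 and 8.99 in parental, 9.07, 9.47 and 4.87 in HRA and 29.8, 21.1 and 12.8 in HRD libraries. It reached the filter only through its HRD libraries, so no test of it is given, and the count and share include it. The TRAIL receptor TNFRSF10A was lower (−0.41 ± 0.13, 0.0348). TNFRSF10A missed the threshold after omitting any 1 of replicates HRA 2 (0.111), HRA 3 (0.112), HRD 1 (0.0514) or HRD 3 (0.115), over a span of adjusted p from 0.0200 to 0.120.

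Genes that p53 lowers through p21 and the DREAM repressor complex were read from 20 cell cycle genes. In HRA 1 was higher and 2 lower (2 and 3 with the replicate block), and in HRD 4 were higher and 4 lower, with medians of −0.10 and −0.01. These are 15% and 40% of the list, beside the 15.2% and 22.8% of all tested genes given above. The mitotic kinase PLK1 moved in opposite directions, from 2859 ± 21.6 in parental cells to 2166 ± 303 in HRA and 3886 ± 228 in HRD (SD, n = 3). Its log2 fold changes were −0.41 ± 0.10 and 0.44 ± 0.10 (adjusted p = 0.0200 and 0.00936 in limma), and the resistant lines differed by 0.85 ± 0.10 (1.57e-04). PLK1 HRA missed the threshold after omitting any 1 of replicates parental 2 (0.0554) or HRA 2 (0.0697), over a span of adjusted p from 0.00447 to 0.192. The centromere gene CENPF fell in HRA (−0.79 ± 0.16, 0.00685, neighbours −0.57), and the checkpoint kinase CHEK1 rose (0.33 ± 0.09, 0.0306). CHEK1 missed the threshold after omitting any 1 of replicates parental 1 (0.0684), parental 3 (0.0939), HRA 1 (0.0936), HRA 2 (0.108) or HRA 3 (0.0713), over a span of adjusted p from 0.0108 to 0.114. In HRD, the transcription factor E2F1 fell (−0.60 ± 0.13, 0.00579), while the mitotic cyclin CCNB1 (0.41 ± 0.11, 0.0176) and the anaphase activator CDC20 (0.37 ± 0.09, 0.0145) rose. CCNB1 missed the threshold after omitting any 1 of replicates parental 1 (0.0523), parental 2 (0.0516) or HRD 1 (0.0505), over a span of adjusted p from 0.00312 to 0.0877. CDC20 missed the threshold after omitting replicate parental 3 (0.0512), over a span of adjusted p from 0.00241 to 0.0599. Between the resistant lines 9 of 20 were higher in HRD and 4 lower, 65% beside 30.1% of all tested genes. The regulators E2F1 (−0.84 ± 0.13, 6.82e-04) and MYBL2 (−0.58 ± 0.11, 0.00343) were lower, and the phosphatase CDC25C was higher (0.53 ± 0.15, 0.0206). CDC25C missed the threshold after omitting any 1 of replicates HRA 1 (0.0921), HRA 3 (0.0669), HRD 2 (0.0644) or HRD 3 (0.0541), over a span of adjusted p from 0.00480 to 0.0921.

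BTG2, PLK2, PLK3, IER5 and GADD45A are also immediate-early genes, which growth and stress signals induce rapidly. Of 18 such genes, these 5 included, 2 rose in HRA (2 rose and 1 fell with the replicate block) and 7 in HRD, beside 9.13% and 10.7% of all tested genes, with medians of 0.24 and 0.58. IER3, an early response gene of cell survival, stood at 14.0, 67.5 and 24 in parental, 39.1, 51.4 and 23.1 in HRA and 222, 499 and 169 in HRD libraries. All HRD libraries were above all others (3.17 ± 0.54, adjusted p = 0.00184, and 2.85 ± 0.54 above HRA, 0.00277), and replicate 2 was the highest of each group. FOS, a subunit of the AP-1 factor, rose in HRD (1.20 ± 0.31, 0.0167). FOS missed the threshold after omitting replicate parental 1 (0.0546), over a span of adjusted p from 0.00126 to 0.0546. The MAP kinase phosphatase DUSP1, of low count, is among those counted as rising in HRA and in HRD. It stood at 7.30, 3.68 and 15.0 in parental, 25.1, 20.3 and 21.9 in HRA and 17.4, 27.1 and 23.5 in HRD libraries. It reached the filter only with its resistant libraries, so no test of it is given, and both counts include it. FOSB rose in HRA (0.89 ± 0.26, 0.0384) and also passed in HRD, at 0.78. FOSB HRA missed the threshold after omitting any 1 of replicates parental 1 (0.113), parental 3 (0.105), HRA 1 (0.0966), HRA 2 (0.0988) or HRA 3 (0.103) and with no filter on low values (0.0638), over a span of adjusted p from 0.00949 to 0.113. FOSB HRD missed it in edgeR (0.0593), with no filter on low values (0.0791) and with only the 6 libraries compared (0.0982). It also did so after omitting any 1 of replicates parental 1 (0.155), parental 3 (0.130), HRD 1 (0.051), HRD 2 (0.168) or HRD 3 (0.0795). Between the resistant lines the survival gene MCL1 was higher in HRD (0.40 ± 0.09, 0.00580). The transcription factor EGR2, of low count, stood at 5.61, 23.3 and 18.0 in parental, 4.89, 8.12 and 4.87 in HRA and 12.9, 58.7 and 16.0 in HRD libraries. It reached the filter only with its HRD libraries, so no test of it is given.

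SESN2, GDF15 and TNFRSF10B are also targets of ATF4, the factor of the amino acid and endoplasmic reticulum stress response. Of 13 tested genes of that response, SESN2 and TNFRSF10B included, 1 rose in HRA, which was TNFRSF10B. That is 7.69% beside 15.2% of all tested genes. With the replicate block 2 also fell in HRA, the stress factor DDIT3 (−0.55, adjusted p = 0.0834 without and 0.0331 with the block) and PSAT1, an enzyme of serine synthesis (−0.39, 0.0724 and 0.0392). In HRD 1 rose and 1 fell, 15.4% beside 22.8% of all tested genes. ASNS, asparagine synthetase, fell there (−0.54 ± 0.13, adjusted p = 0.0102) and was lower than in HRA (−0.71 ± 0.13, 0.00187), and PPP1R15A, also known as GADD34, rose (0.53 ± 0.15, 0.0294). PPP1R15A missed the threshold after omitting any 1 of replicates parental 1 (0.0745), parental 2 (0.0593), parental 3 (0.0620) or HRD 2 (0.0959) and with only the 6 libraries compared (0.0643), over a span of adjusted p from 0.00745 to 0.190.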

How the data were processed

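RNA of 9 HL-60 libraries was sequenced. The authors deposited 1 table of normalized signal, gene counts divided by DESeq2 size factors, which multiplied back to whole reads for 100% of values (tolerance 0.001). The submitters' processing notes list, in no order of use, HTSeq 0.11.1, Cufflinks 2.2.1, Bowtie2 2.3.5.1, TopHat2 2.1.1, DESeq2 and Picard. The strand setting is not given in the sources used here. Log2(deposited value + 1) was tested with limma 3.58.1 (trend) in R 4.3.3, 1 model of all 9 libraries, on the 12569 genes that reached 10 in 3 or more libraries, with Benjamini-Hochberg adjustment at 0.05, and the script was tested on simulated data. Alternatives were edgeR 4.0.16 and DESeq2 1.42.0 on recovered reads, TMM scaling, pseudocounts of 0.5 and 5, no filter, only the 6 libraries compared, a replicate block and each library left out. The median SE of a log2 fold change was 0.132.

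The members and lists were chosen with earlier results of these data known. Members that passed in at least 1 comparison are given in every library, TP63, TP73 and MDM4 are named whatever they show (1 more gene of that rule is not reported here), and from each other list the up to 4 genes per comparison with the largest change among those that passed are named. Deviations from the group means, over all tested genes, correlated between same-numbered HRA and parental libraries at 0.22, 0.38 and 0.14, so the numbers were taken to pair these, from the data and not from the labels. HRA replicate 3 correlated nearly as highly with parental replicate 1, at 0.12, so the pairing is weak for replicate 3. The other pairs of unlike number correlated negatively. Coordinates and sequences are RefSeq GRCh38.p14, used for names, neighbours and promoters alone. An exact permutation test of 3 against 3 cannot go below p = 0.1, so single genes were tested only in the model of all genes.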

Additional observations from a re-analysis of the deposited data

Results flagged for a closer look

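6 p53 target genes differed between the resistant lines, by the test of HRD against HRA in the limma model, which is the test of the difference between their changes from the shared parental libraries. BTG2 differed by 1.48 ± 0.37 (log2, SE; adjusted p = 0.0120), with 1.22 ± 0.37 in HRD and −0.26 ± 0.37 in HRA against parental cells. FAS differed by −1.10 ± 0.17 (7.90e-04), and DDB2 by −0.76 ± 0.15 (0.00424), each with a positive value in HRA and a negative one in HRD. MDM2 differed by −0.33 ± 0.09 (0.0175), ZMAT3 by 0.38 ± 0.11 (0.0237) and RPS27L by 0.33 ± 0.08 (0.0120).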

How the results depend on the processing

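With 1 library left out at a time, the number of members higher in HRA than in parental cells ran from 1 to 4, that in HRD from 1 to 3, and that in HRD against HRA from 1 to 3. The genes called over the whole table then ran from 904 to 1539 in HRA against parental cells and from 2391 to 3280 between the resistant lines. Without replicate 2 of every group, an alternative chosen after seeing the data, 2 members were higher in HRA, 2 lower in HRD and 1 higher in HRD than in HRA, and 712, 1470 and 1825 genes were called. Fewer samples entered these fits. With no filter on low values 1 member was higher in HRD, where more genes were tested, and with only the 6 libraries compared 1. With a replicate block, 6 members were higher and 1 lower in HRA against parental cells. In HRD 7 were higher and 7 lower against parental cells, and 3 and 4 against HRA. The genes called over the whole table were then 2774, 3639 and 4673 in these comparisons. Same-numbered HRD libraries correlated at −0.08, 0.26 and 0.29 with parental ones and at −0.03, 0.41 and 0.23 with HRA ones. Replicates 2 and 3 of HRD thus followed their number and replicate 1 did not, so the numbers were not taken to pair all HRD libraries. SLC7A11, an ATF4 target, changed sign in HRD against parental cells, from −0.05 ± 0.28 to 0.39 without parental replicate 3 (adjusted p = 0.0339 in limma), with a range of −0.31 to 0.39 over the libraries left out. Of 1170 values of single members under an alternative, 1097 kept their side of the threshold, 56 lost the call and 17 gained it. None changed sign where the main or the alternative fit passed, and signs were not compared where neither passed. TP63, with 2 parental reads, is limited by depth in parental cells.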
